A study of Mus musculus with 6 samples.

Results

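This account follows 10 genes of neutrophils and their bone marrow precursors in mouse liver tumours that carried or lacked the transcription factor Gli1. The members were the rows of the deposited gene table named S100a8, S100a9, Retnlg, Ly6g, Csf3r, Camp, Ngp, Ltf, Mpo and Elane. All 10 were found among 43346 genes. They were read as 5 mature members (S100a8, S100a9, Retnlg, Ly6g and Csf3r) and 5 granule-precursor members (Camp, Ngp, Ltf, Mpo and Elane).

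Diethylnitrosamine (DEN), a carcinogen that hepatocytes activate, had induced the 6 liver tumours whose RNA was sequenced. Every animal, controls included, overexpressed SULF2, a sulfatase that edits heparan sulfate, and the labels call this background Sulf2-TTR. One group had wild-type Gli1 (WT, 3 libraries) and the other a Gli1 knockout (KO, 3 libraries). The labels give neither the age of the mice nor say that the tumours are from different mice, and a p-value here therefore covers only the spread between these samples. No library of liver without tumour was analysed here.

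Neutrophils develop in the bone marrow in a fixed order. Promyelocytes fill azurophil granules with myeloperoxidase and serine proteases, myelocytes then fill specific granules with proteins such as lactoferrin, and the mature cell switches those genes off and keeps the granule proteins. Circulating neutrophils are instead rich in the mRNA of the S100A8 and S100A9 calcium-binding proteins and enter the liver when chemokines of the CXC family draw them. RNA of granule-precursor genes in a tissue is therefore read separately from RNA of mature cell genes.

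In the deposited table, with coordinates read as GRCm38, the whole genes lie as follows. The mature members are S100a8 at chr3:90669071-90670034, S100a9 at chr3:90692632-90695721, Retnlg at chr16:48872608-48874498, Ly6g at chr15:75155240-75159126 and Csf3r at chr4:126024550-126044440. The granule-precursor members are Camp at chr9:109847377-109849456, Ngp at chr9:110419808-110423010, Ltf at chr9:111019292-111042766, Mpo at chr11:87793581-87804413 and Elane at chr10:79886312-79888216. S100a9 and Camp are on the minus strand and the other 8 on the plus strand. All are annotated as protein-coding, and the table gives 1 count per gene, so exons and introns were not read separately. The 3 members Camp, Ngp and Ltf lie within 1.20 Mb of chromosome 9, and S100a8 and S100a9 lie 22.6 kb apart on chromosome 3. Upstream sequence of 4 members is given to show what the start regions of some mature and granule-precursor genes hold. Its part in the levels of these genes was not tested. The letters come from RefSeq on GRCm38.p6, are written 5′ to 3′ on the strand of the gene, and stop before the first base that RefSeq or GENCODE M21 annotates as transcribed. Capitals mark matches on either strand to TTGCNNAA, a core recognised by C/EBP factors, or to GAGGAA, a core recognised by PU.1, both of them regulators of granulocyte development.
S100a8 (chr3:90668821-90668977, plus strand): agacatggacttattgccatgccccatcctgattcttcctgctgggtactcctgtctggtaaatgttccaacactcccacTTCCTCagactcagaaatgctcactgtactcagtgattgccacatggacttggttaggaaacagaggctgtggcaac
Retnlg (chr16:48872358-48872607, plus strand): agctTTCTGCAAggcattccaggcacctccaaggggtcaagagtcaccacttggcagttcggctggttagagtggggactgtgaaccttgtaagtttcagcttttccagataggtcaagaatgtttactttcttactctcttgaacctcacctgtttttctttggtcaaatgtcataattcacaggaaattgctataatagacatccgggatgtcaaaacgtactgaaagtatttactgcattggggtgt
Ngp (chr9:110419558-110419746, plus strand): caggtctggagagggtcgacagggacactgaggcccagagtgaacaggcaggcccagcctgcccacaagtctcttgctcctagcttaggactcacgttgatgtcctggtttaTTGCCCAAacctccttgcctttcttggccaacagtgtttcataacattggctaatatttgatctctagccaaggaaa
Ltf (chr9:111019042-111019270, plus strand): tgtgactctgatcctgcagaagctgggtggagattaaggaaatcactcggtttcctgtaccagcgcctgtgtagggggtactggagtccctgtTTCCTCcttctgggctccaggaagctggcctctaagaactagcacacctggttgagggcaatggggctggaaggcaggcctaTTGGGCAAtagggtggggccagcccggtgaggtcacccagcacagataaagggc

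Over the 250 bases before the RefSeq start, 5 of the 10 members held TTGCNNAA (3 mature, 2 granule-precursor), against 9.55% of 27025 genes. GAGGAA was present in 6 of 10 members (3 of each group), against 23.1%. The palindrome TTCNNNGAA, a core recognised by STAT factors, was in 0 of 10 members, against 7.18%. No match of these motifs overlapped another in a member. Before the first base annotated as transcribed, Camp (89 bases) and Csf3r (141 bases) held neither TTGCNNAA nor GAGGAA, unlike the members printed above. The printed stretches are longer, at 157 to 250 bases, and Csf3r held GAGGAA within its full 250 bases. These are letter matches only.

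Total gene counts ran from 75205624 to 132979502 per library, so even the rarest members had reads in most libraries. Alb, the albumin gene of hepatocytes, was at 114642.6 to 167493.6 CPM (read counts scaled to library size with TMM factors), as the liver label implies. Gli1 was counted at 10, 20 and 7 reads in WT replicates 1, 2 and 3 and at 4, 3 and 3 in KO replicates 1, 2 and 3, in the direction of the labels. No member was abundant in any library. The 10 genes together had 4.70 to 44.9 CPM of the raw totals, with the highest share in WT replicate 3 and the lowest in KO replicate 2.

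All 10 members had a log2 fold change (KO minus WT) below 0, where 51.8% of 18359 tested genes did, and 6 of the 10 stayed below 0 without WT replicate 3. None of the 9 members past the low-count filter was called by edgeR's quasi-likelihood test at FDR 0.05 (0 called, as among all genes, 0%). At an unadjusted edgeR p under 0.05, S100a8, S100a9 and Retnlg were lower in KO, 3 of 9, where 2.02% of all genes tested were. DESeq2 called 1 member, Retnlg, where it called 0.326% of 19016 genes. Granule-precursor members passed the filter through the libraries where they were higher. S100a8, S100a9, Retnlg and Csf3r had at least 24 reads in every library. The members were chosen with earlier results of these data known, so these shares are a description. In whole tumour RNA, fewer neutrophils and less RNA of these genes per neutrophil cannot be told apart.

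**Figure D1:**
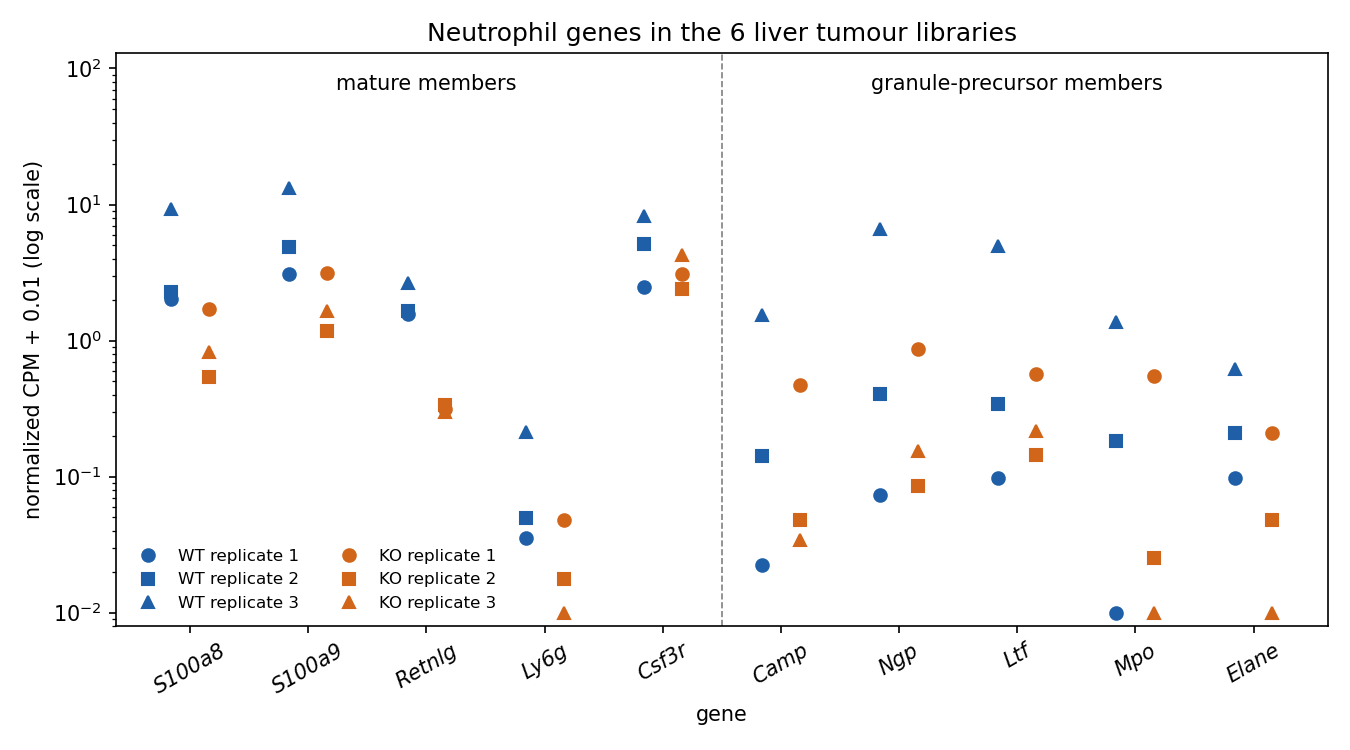
Normalized CPM plus 0.01 on a log axis for each member, with 1 point for each of the 6 libraries (blue WT, orange KO, symbol by replicate). Retnlg is the member with a wide gap between genotypes, with WT at 1.55 to 2.62 CPM and KO at 0.290 to 0.324, while every granule-precursor member is highest in WT replicate 3 and next highest in KO replicate 1.

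Retnlg encodes resistin-like gamma, a small secreted protein found in neutrophils and bone marrow. It had 124, 123 and 233 reads in WT replicates 1, 2 and 3 and 32, 43 and 24 reads in KO replicates 1, 2 and 3. In normalized CPM this was 1.55, 1.63 and 2.62 in WT and 0.304, 0.324 and 0.290 in KO. The SD of the KO libraries was 0.0170 CPM (n = 3) and that of the WT libraries 0.596, and the genotypes did not overlap.

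The log2 fold change of Retnlg was -2.65 ± 0.36 (SE, n = 3 per group), a level 6.30-fold higher in WT. It did not pass edgeR's adjustment (FDR 0.739) and passed that of DESeq2 (adjusted p = 4.38e-08). Permuting the 6 CPM values between genotypes (exact permutation test, two-sided) gave p = 0.10, the lowest this design can reach. Without WT replicate 3, the library with the most Retnlg, the log2 fold change was -2.37. Every KO library lay below every WT library for Retnlg and S100a8, 2 of 9 members past the filter, where 3.96% of all genes tested did so.

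S100a8 and S100a9 encode the calprotectin pair, which makes up much of the cytosolic protein of neutrophils and is also made by monocytes. S100a8 was at 2.00, 2.27 and 9.21 CPM in WT replicates 1, 2 and 3 and at 1.69, 0.527 and 0.808 in KO replicates 1, 2 and 3. Its genotypes did not overlap, but WT replicate 1 and KO replicate 1 were close. The log2 fold change of S100a8 was -2.16 ± 0.75 (edgeR FDR 1.000), and -1.08 without WT replicate 3.

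S100a9 was at 3.09, 4.90 and 13.2 CPM in WT and 1.16 to 3.14 CPM in KO. KO replicate 1 was just above WT replicate 1, so the genotypes overlapped. Its log2 fold change was -1.83 ± 0.64 (edgeR FDR 1.000), and -1.01 without WT replicate 3. Per gene length and library size (RPKM, the deposited values), S100a9 was 1.07 to 1.65 times S100a8 in every library, so the pair kept a narrow ratio while its level varied.

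Csf3r encodes the receptor for granulocyte colony-stimulating factor, which sustains neutrophil production and survival and is present from precursors to mature cells. It was at 2.48, 5.09 and 8.18 CPM in WT against 3.07, 2.38 and 4.28 in the KO libraries. WT replicate 1 lay among the KO libraries. The log2 fold change of -0.69 ± 0.47 was the smallest in size of the 10 members (edgeR FDR 1.000), and was -0.22 without WT replicate 3.

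Ly6g, the surface protein used to sort mouse neutrophils, was nearly uncounted. It had 2, 3 and 18 reads in WT replicates 1, 2 and 3 and 4, 1 and 0 in KO replicates 1, 2 and 3. It fell below the low-count filter. Its log2 fold change, taken from a fit with low members added back, was -2.44 ± 1.19 and was not adjusted. The count of 0 in KO replicate 3 allows a level of up to 0.0362 CPM (3 reads), near the 0.0251 CPM of WT replicate 1. Ly6g belongs to a family of related genes, so its few reads are uncertain.

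The granule-precursor members followed single libraries more than the genotype. Ngp encodes neutrophilic granule protein, a cathelicidin relative of the specific granules. It was at 0.0626, 0.396 and 6.59 CPM in WT replicates 1, 2 and 3 and at 0.855, 0.0752 and 0.145 in KO replicates 1, 2 and 3. WT replicate 3 had 16.6 times the CPM of WT replicate 2, and KO replicate 1 had 5.90 times the CPM of the higher of the other KO libraries. WT replicate 1 was the lowest of all 6. The log2 fold change of -2.71 ± 1.67 (edgeR FDR 1.000) was 0.64 without WT replicate 3.

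Ltf, which encodes the iron-binding specific granule protein lactoferrin, was at 0.0877, 0.330 and 4.91 CPM in WT against 0.560, 0.135 and 0.205 in the KO libraries. Camp, the gene of the antimicrobial peptide cathelicidin, was at 0.0125, 0.132 and 1.53 CPM in WT against 0.465, 0.0376 and 0.0241 in the KO libraries. Both had the order WT replicate 3, KO replicate 1, WT replicate 2 at the top and WT replicate 1 at the bottom, as Ngp did. Their log2 fold changes were -2.56 ± 1.42 for Ltf and -1.66 ± 1.63 for Camp (edgeR FDR 1.000 for each), and they were 0.52 and 1.28 without WT replicate 3.

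The 3 genes share a stretch of chromosome 9, and the part of position in their levels was not tested. Of 27 other tested genes between Camp and Ltf, WT replicate 3 was highest in 2 (22.2% of all genes tested). WT replicate 3 and KO replicate 1 were the highest pair in 0 of them (15.0% of all genes tested). The median log2 fold change of these neighbours was 0.14, with a range of -0.89 to 1.08.

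Mpo and Elane are genes of the azurophil granules. Mpo encodes myeloperoxidase, which makes hypochlorous acid. It had 0, 13 and 121 reads in WT replicates 1, 2 and 3 and 57, 2 and 0 in KO replicates 1, 2 and 3. The zero counts allow up to 0.0376 CPM in WT replicate 1 and 0.0362 in KO replicate 3. The log2 fold change was -1.46 ± 1.91 (edgeR FDR 1.000), and 1.12 without WT replicate 3. Gm11505, annotated on the opposite strand inside Mpo, had 35 reads in WT replicate 3, 18 in KO replicate 1 and 0 in the others. No source used here states the strand setting of the counting, so reads of the pair cannot be told apart.

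Elane encodes neutrophil elastase, a serine protease of the azurophil granule. It had 7, 15 and 54 reads in WT and 21, 5 and 0 in KO, or 0.0877, 0.198 and 0.607 CPM against 0.199, 0.0376 and 0. KO replicate 1 and WT replicate 2 differed by less than counting error, with 95% exact Poisson intervals of 0.123 to 0.305 and 0.111 to 0.327 CPM. The log2 fold change was -1.89 ± 1.22 (edgeR FDR 1.000). Elane stayed below 0 without WT replicate 3 (-0.82), where Camp, Ngp, Ltf and Mpo did not.

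WT replicate 3 was the highest library for all 10 members, where it was highest for 22.2% of genes tested. WT replicate 3 and KO replicate 1 were the highest pair for all 5 granule-precursor members and for 0 of the 5 mature ones, where they were the highest pair for 15.0% of genes tested. Their totals were 95777670 and 95808696 reads, below KO replicate 2 (132979502) and above the other 3 libraries, and the part of depth in this order was not tested.

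**Figure D2:**
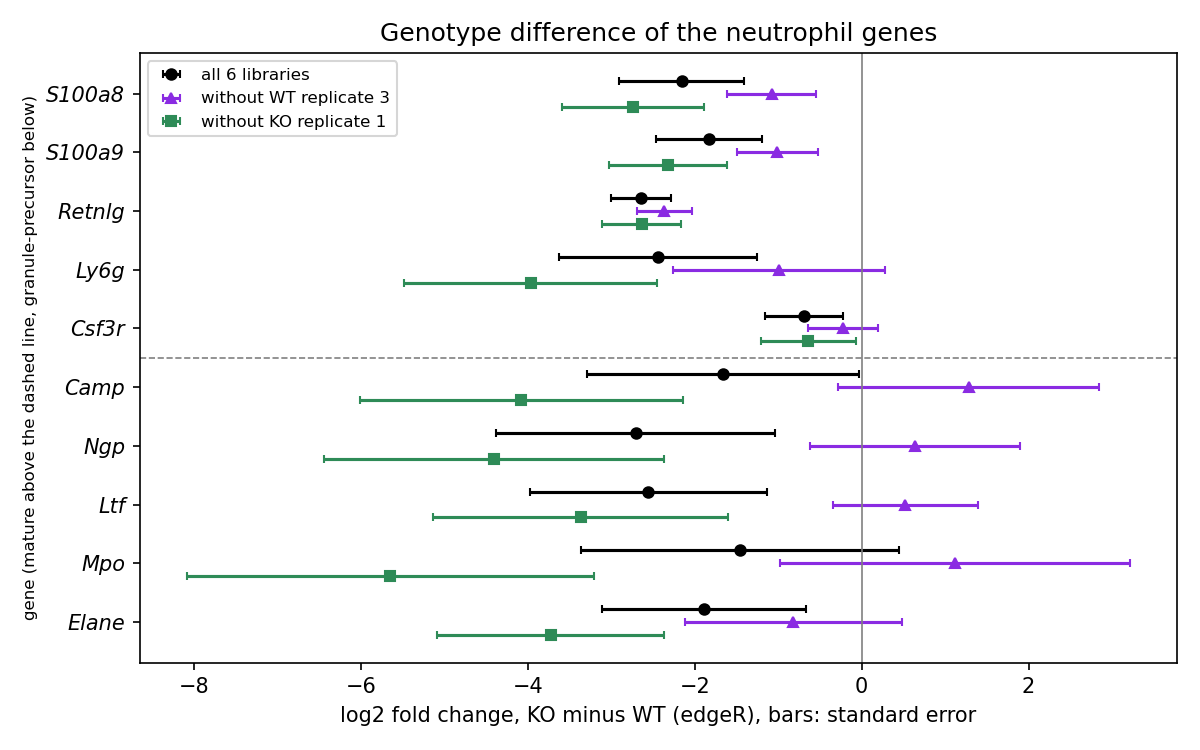
Log2 fold change (KO minus WT, edgeR) of each member with its standard error, from all 6 libraries (black circles), without WT replicate 3 (purple triangles) and without KO replicate 1 (green squares). Retnlg stays near -2.65, at -2.37 and -2.64, while Camp moves from -1.66 to 1.28 or -4.08.

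Mature and granule-precursor genes were compared within each library by their share of member reads. Granule-precursor genes took 2.66% of the member reads in WT replicate 1 (95% exact Clopper-Pearson interval 1.63 to 4.08%), 8.11% in WT replicate 2 (6.59 to 9.84%) and 31.0% in WT replicate 3 (29.6 to 32.4%). In KO replicate 1 they took 24.1% (21.7 to 26.7%), in KO replicate 2 6.40% (4.61 to 8.61%) and in KO replicate 3 5.06% (3.46 to 7.10%). Intervals cover counting error only. The share was over 20% in 1 library of each genotype and under 10% in the other 2 of each, so it did not separate the genotypes.

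**Figure D3:**
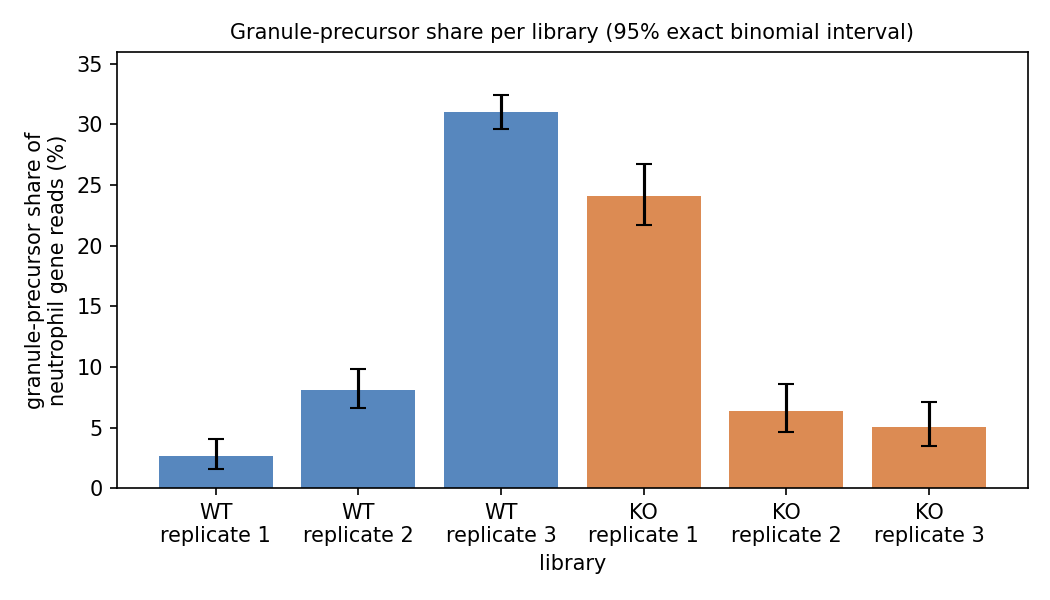
Share of the reads of all 10 members that fell on the 5 granule-precursor members, in percent, for each library (blue WT, orange KO), with 95% exact binomial intervals. WT replicate 3 at 31.0% and KO replicate 1 at 24.1% stand above the other 4 libraries, which lie between 2.66 and 8.11%.

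The mean log2 CPM of the mature members averaged 0.80 ± 0.93 (SD, n = 3) in WT and -0.82 ± 0.45 in KO, a difference of -1.62. That of the granule-precursor members averaged -1.67 ± 2.60 in WT and -2.96 ± 1.70 in KO, a difference of -1.29 that was smaller than either group's SD. Mature minus granule-precursor level was 4.12, 2.51 and 0.75 in WT replicates 1, 2 and 3 and 0.68, 2.60 and 3.13 in KO replicates 1, 2 and 3. Its genotype difference of -0.33 lay within the spread of either group (SD 1.69 in WT and 1.29 in KO). Its sign rested on single libraries: leaving out WT replicate 3 gave -1.18, leaving out WT replicate 1 gave 0.50, and leaving out KO replicate 1 gave 0.40. The median log2 fold change was -2.16 over the 5 mature members, Ly6g included, and -1.89 over the 5 granule-precursor members, against -0.01 over all genes tested. Without WT replicate 3 these medians were -1.01 and 0.64. Without both WT replicate 3 and KO replicate 1, a pair chosen after seeing the data, they were -1.67 and -1.14. Camp, Ngp, Ltf and Mpo, above 0 without WT replicate 3 alone, were then at -1.14 ± 1.18, -1.07 ± 0.99, -0.29 ± 0.79 and -3.07 ± 1.93 (SE).

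Per kilobase, the order of the members in the WT median was S100a9 (7.93 RPKM), S100a8 (4.89), Retnlg (2.26), Csf3r (1.19), Ngp (0.289), Camp (0.186), Elane (0.182), Ltf (0.102), Mpo (0.0424) and Ly6g (0.0355). In the KO median, Csf3r (0.828 RPKM) came before Retnlg (0.472), and S100a9 (3.00) and S100a8 (1.97) stayed first. S100a9 was above S100a8 in each library, and the ranges over libraries of all neighbours in this order overlapped. In WT replicate 3, Ngp reached 4.66 RPKM, above Retnlg at 3.53 in the same library. The Ngp to S100a9 ratio in RPKM ran from 0.00913 in WT replicate 1 to 0.226 in WT replicate 3, with 0.123 in KO replicate 1 and 0.0293 and 0.0398 in KO replicates 2 and 3.

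Across the 6 libraries, Pearson's r of log2 CPM between granule-precursor members ran from 0.75 to 0.99 over 10 pairs. S100a8 and S100a9 had r = 0.99. Retnlg had r of 0.36 with Camp, 0.38 with Mpo, 0.45 with Ngp and Ltf and 0.70 with Elane. S100a9 had 0.79 to 0.88 with the same genes. The points are 6 libraries that all members share, with their depth and tissue makeup.

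Among 18350 other genes, those most like the mean of the mature members were the ribosome assembly factor gene Rsl1d1 (r = 0.991), Ms4a8a, the atypical kinase gene Riok1 and RP24-321N12.1 (0.985 each) and Socs1, a feedback inhibitor of cytokine signalling (0.983). Without WT replicate 3 these genes ranked 37, 112, 63, 51 and 113 in likeness, so none stayed among the first 5. Ms4a8a was at 0.288, 0.634 and 1.65 CPM in WT against 0.247, 0.150 and 0.169 in the KO libraries. Those most like the granule-precursor mean were the antisense transcript BC018473 (0.997), the cytokine gene Tslp (0.995), the adenylate cyclase gene Adcy7 (0.994), and the growth factor gene Pdgfc and the glycosyltransferase gene Mgat4a (0.993 each). Without WT replicate 3 these ranked 3, 16, 12, 8 and 9. BC018473 was at 0, 0.277 and 20.5 CPM in WT against 0.760, 0 and 0 in the KO libraries. With 6 points, 36 genes had r over 0.95 with the mature mean and 86 with the granule-precursor mean. A high r does not give the size of a change. Log2 fold changes ran from -2.18 (Ms4a8a) to -0.23 (Riok1) among the genes named as like the mature mean. Among those like the granule-precursor mean they ran from -4.77 (BC018473) to -0.20 (Adcy7).

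Other genes of mature neutrophils were mostly lower in KO without passing the test. Of 22 listed genes, 19 passed the filter and 0 were called by edgeR in either direction. Log2 fold changes were below 0 for 17 (51.8% of all genes), and the median was -0.97 (-0.01 over all genes). Every KO library lay below every WT library for 7 (3.96% of all genes). Mmp8, the neutrophil collagenase, was at 0.564, 0.476 and 2.35 CPM in WT against 0.218, 0.256 and 0.0965 in the KO libraries (log2 fold change -2.55 ± 0.77). The formyl peptide receptor gene Fpr2 was at 0.802, 1.93 and 1.18 CPM in WT against 0.522, 0.414 and 0.555 in the KO libraries (-1.39 ± 0.43). WT replicate 3 was highest for 13 of the 19 (22.2% of all genes).

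Of 10 other granulocyte precursor genes, 5 passed the filter and 0 were called by edgeR. Log2 fold changes were below 0 for 4 of the 5 (51.8% of all genes), with a median of -1.14. Prtn3, the azurophil protease next to Elane, was at 2.53, 5.83 and 12.6 CPM in WT against 5.41, 1.01 and 1.42 in the KO libraries (-1.42 ± 0.81), so its genotypes overlapped. Gfi1, a repressor that directs granulocyte development, was at 0.163, 0.106 and 0.236 CPM in WT against 0.104, 0.0527 and 0.0724 in the KO libraries (-1.14 ± 0.53). Cebpe, the regulator of specific granule genes, was at 4.32 CPM in KO replicate 3 and 0.855 to 2.05 in the other libraries, an order unlike that of Ngp, Ltf and Camp. Cebpe was named after its values were seen.

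Subunits of the phagocyte NADPH oxidase, which macrophages share, had 5 of 6 log2 fold changes below 0 (51.8% of all genes). Their median was -0.62, with 0 called by edgeR. Ncf4 averaged 2.15 ± 0.442 CPM (SD, n = 3) in WT and 1.22 ± 0.413 in KO, without overlap (log2 fold change -0.82 ± 0.38). The small GTPase gene Rac2 was at 4.15 to 7.31 CPM in WT against 3.41 to 4.54 in the KO libraries (-0.58 ± 0.29). WT replicate 3 was highest for all 6.

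Of 13 chemokines, cytokines and growth factors that recruit or sustain neutrophils, 8 passed the filter and 0 were called by edgeR. Log2 fold changes were below 0 for 6 of the 8 (51.8% of all genes), with a median of -0.94. Cxcl1, a chief ligand of the neutrophil receptor CXCR2, was at 113.4, 132.1 and 97.0 CPM in WT against 25.1, 10.6 and 8.93 in the KO libraries. The genotypes of Cxcl1 did not overlap, and its log2 fold change was -2.94 ± 0.43 (edgeR FDR 0.797, DESeq2 adjusted p = 1.58e-07). Unlike the members, Cxcl1 was lowest of the WT libraries in WT replicate 3. Il1a, the alarmin cytokine, was at 3.41 to 10.2 CPM in WT against 1.33, 1.82 and 2.27 in the KO libraries (-1.72 ± 0.48).

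The gene of granulocyte colony-stimulating factor, Csf3, had reads in KO replicate 1 alone (0.0190 CPM), and Il17a had 0 reads in all 6 libraries. Among 12 receptors and adhesion molecules, 11 passed the filter and 0 were called by edgeR. Log2 fold changes were below 0 for 10 of the 11 (51.8% of all genes), with a median of -0.27. The integrin genes Itgal (-0.68 ± 0.34) and Itgb2 (-0.54 ± 0.35), subunits of the LFA-1 receptor, had the smallest p, and the genotypes overlapped for all 11. Csf3 and Il17a were named after their values were seen.

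**Figure D4:**
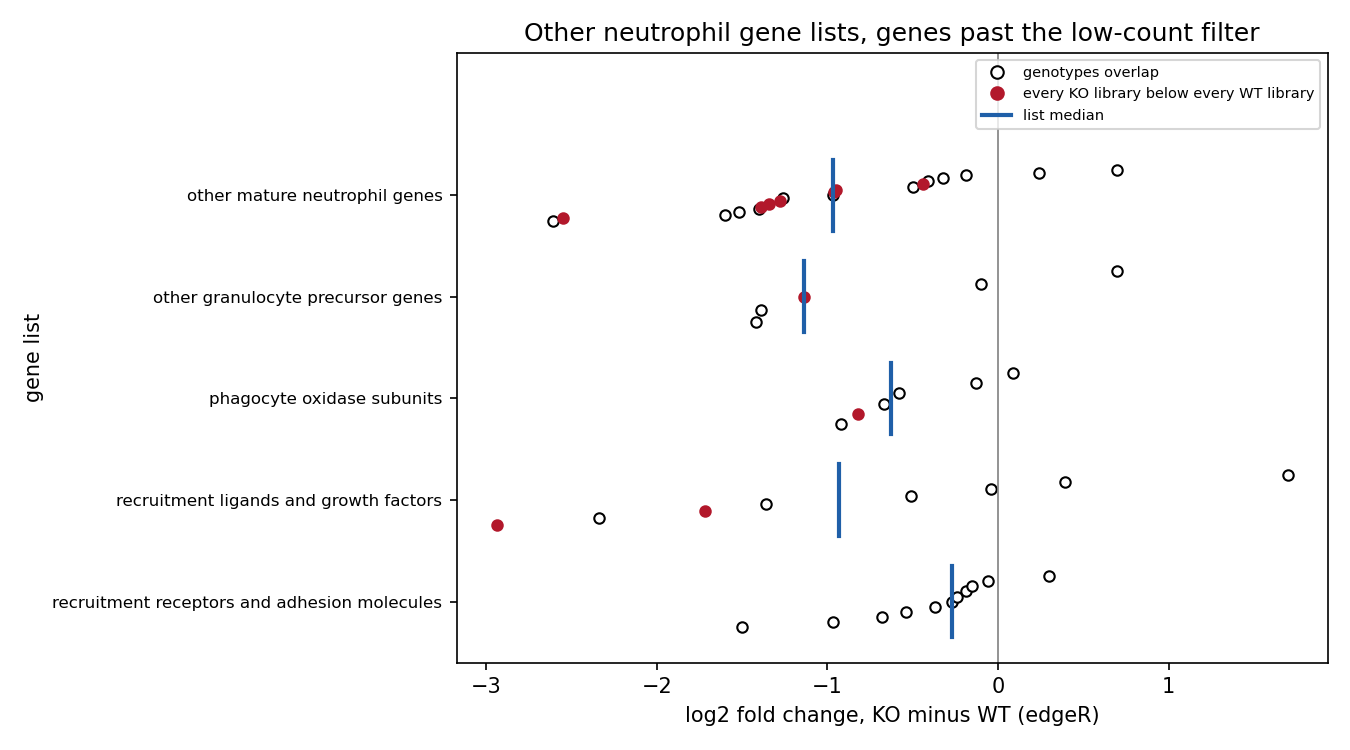
Log2 fold change (KO minus WT, edgeR) of each gene past the low-count filter in 5 lists of neutrophil biology, excluding the 10 members, with the list median as a blue bar. Filled points are genes with every KO library below every WT library, and Cxcl1 at -2.94 is the lowest point.

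Markers of other cells were read in the same libraries. Over all genes tested, 51.8% had a log2 fold change below 0, and every KO library lay below every WT library for 3.96%. Genes common to white blood cells, such as Lcp1 and Laptm5, summed to 64.5 to 147.0 CPM in WT against 82.5 to 115.3 in the KO libraries, and the genotypes overlapped for all 6 of them. Kupffer cell and macrophage markers, led by Cd5l and Csf1r, summed to 134.1 to 458.9 CPM in WT against 90.5 to 176.7 in the KO libraries, with 9 of 10 log2 fold changes below 0, a median of -1.10 and 2 genes without overlap between genotypes. T and NK cell markers, led by Cd8a and Cd4, summed to 3.63 to 6.04 CPM in WT against 2.08 to 3.57 in the KO libraries, with 8 of 9 below 0, a median of -1.07 and 4 without overlap. The medians of both lists were as low as that of the other mature neutrophil genes. B and plasma cell markers, led by Jchain and Cd79b, summed to 6.75 to 60.8 CPM over the 6 libraries, with 60.8 in WT replicate 3 and 20.5 in KO replicate 1, most of it Jchain in both (17.6 in KO replicate 1). Of these 6 markers 5 had log2 fold changes below 0 (median -1.06), and Cd79a and Cd79b had every KO library below every WT library. Their part in the lower neutrophil genes was not tested.

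Monocyte markers had 4 of 8 log2 fold changes below 0 and a median of 0.04, with Plac8 at 4.11, 5.23 and 10.9 CPM in WT against 10.1, 5.45 and 6.48 in the KO libraries. Their sum was dominated by Fn1, which hepatocytes also make. Erythroid markers, led by Hbb-bs and Alas2, summed to 97.1 to 162.5 CPM in WT against 105.3 to 187.3 in the KO libraries (median log2 fold change -0.08). These sums overlapped between genotypes. The erythroid marker Epor, named after its values were seen, was at 0.789, 0.462 and 0.832 CPM in WT against 1.40, 0.918 and 1.05 in the KO libraries (0.69 ± 0.38). Platelet markers, led by Itga2b and Ppbp, summed to 3.11 to 8.15 CPM. Progenitor markers summed to 26.3 CPM in WT replicate 3 and 28.8 in KO replicate 1 against 15.2 to 17.5 in the others. Among them Cd34, which endothelium also expresses, was at 10.2 and 18.4 CPM in that pair and 3.05 to 6.36 in the others, and Kit was at 2.63 to 5.34. Eosinophil, basophil and mast cell markers, led by Ccr3 and Siglecf, summed to 0.712 to 3.43 CPM, with Epx and Mcpt4 at 0 in all 6 libraries.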

How the data were processed

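The deposited table holds, for every gene and each of the 6 libraries, raw counts and RPKM made by the authors. The submitters' processing notes name HTSeq, TopHat2 2.0.6 and bcl2fastq without their roles, and hg19 and GRCh37, which are human builds. Gene identifiers were those of mouse Ensembl: of 42462 shared with GENCODE M21, 84.2% had the same start on GRCm38. The deposited RPKM values were scaled by coding length and served only to compare levels between genes.

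Counts were tested with edgeR 4.0.16 (R 4.3.3): filterByExpr, TMM factors, robust quasi-likelihood test, two-sided, Benjamini-Hochberg over 18359 genes, FDR 0.05. Log2 CPM used a prior count of 2. DESeq2 1.42.0, limma 3.58.1 voom, other filters, covariates and left-out libraries were alternatives. In data simulated with the dispersions that edgeR had estimated, DESeq2 called more unchanged genes than edgeR did. That simulation cannot rank the tools on these data, because it was built on edgeR's own estimates.

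Members, lists and tests were chosen with earlier results of these data known. The named genes were the 10 members, Gli1, the 2 genes of smallest p in each neutrophil list, the 2 of highest mean CPM in each list of another cell type and the 5 genes most correlated with each member mean. Of 154 listed genes, 151 matched a deposited symbol, 2 matched through GENCODE and 1 had no match.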

Additional observations from a re-analysis of the deposited data

How the results depend on the processing

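DESeq2 called 1 member and 62 genes in all, where edgeR called 0, and edgeR and limma voom called 0 members and 0 genes under each other setting run. Leaving out 1 library, or WT replicate 3 and KO replicate 1 together (chosen after seeing the data), gave a mature median log2 fold change of -2.64 to -1.01 and a granule-precursor median of -4.08 to 0.64, each highest without WT replicate 3. Single members then ran from -4.08 to 1.28 for Camp, -4.41 to 0.64 for Ngp, -3.37 to 0.52 for Ltf and -5.65 to 1.12 for Mpo, and Camp was 0.08 by voom with sample quality weights. The cause was not tested. Members without overlap between genotypes numbered 4 of 9 without KO replicate 1 (S100a8, S100a9, Retnlg and Elane, 7.54% of all genes). They also numbered 4 without WT replicate 1 (8.92%) and 4 without WT replicate 3 and KO replicate 1 (18.5%). The number stayed at 2 of 9 without WT replicate 2 (6.72%), WT replicate 3 (14.0%), KO replicate 2 (7.90%) or KO replicate 3 (7.40%). The mature minus granule-precursor difference ran from -1.18 to 0.50 with 1 library left out. With the replicate number as a block the medians were -1.96 and -1.93 and 0 members were called. Deviations of same-numbered libraries from their group means had correlations of -0.285, 0.18 and -0.343. With so few libraries these cannot exclude a pairing, and the labels state none. Zero counts of Mpo, Elane and Ly6g limit what their fold changes can show.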

Other observations

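Several secreted or granule-related genes outside the members also stood high in WT replicate 3 and KO replicate 1, the highest pair for 15.0% of genes tested. Lcn2, the gene of the siderophore-binding protein lipocalin 2 that neutrophils store and hepatocytes make in inflammation, was at 78.4, 80.2 and 659.9 CPM in WT replicates 1, 2 and 3 and 503.0, 70.3 and 188.2 in KO replicates 1, 2 and 3. Slpi, a protease inhibitor of neutrophils and epithelia, was at 1.95, 2.03 and 43.4 CPM in WT against 46.3, 16.1 and 15.0 in the KO libraries. Pglyrp1, a peptidoglycan-binding granule protein, was at 0.939, 0.172 and 10.6 CPM in WT against 4.43, 0.203 and 0.265 in the KO libraries. Chil3, a chitinase-like protein of specific granules and macrophages, was at 4.09 CPM in WT replicate 3 and 1.29 in KO replicate 1 against at most 0.449 in the others. Hdc, on the list of other mature neutrophil genes, went the other way. It was at 9.09 CPM in WT replicate 3 and 10.3 in KO replicate 1 against 15.6 to 24.9 in the others. All genes of this paragraph were named after their values were seen, and the difference between the libraries was not tested.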
